A study of Mus musculus with 9 samples.

Results

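The genes described here are the antioxidant, glutathione and selenoprotein genes of sorted mouse melanocytes: 54 of the 16299 genes in the deposited table. They were chosen by name: the glutathione S-transferases, the glutathione peroxidases, the peroxiredoxins, the thioredoxin system, the enzymes that make and recycle glutathione, the superoxide dismutases and catalase, the iron-storage ferritins, Nqo1, Hmox1, the regulators Nfe2l2 and Keap1, and the selenium carrier Selenop. The naming pattern took 1 letter after "Selen", so 11 further genes named Seleno and a letter are outside the 54 and are described separately. They are not a full list of selenoproteins.

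Melanocytes, the pigment cells of the skin, were sorted by flow cytometry from epidermis, and 9 SMART-Seq v4 libraries were sequenced, 3 in each of 3 groups. The controls (control tail) were tail cells of Spry1flox/flox mice, whose Spry1 alleles are floxed and which have no Cre. The tail knockouts (knockout tail) and back knockouts (knockout back) were cells of tail or back epidermis of Spry1flox/flox k14-Cre-ERT2 mice, which also carry a tamoxifen-activated Cre recombinase under the keratin 14 promoter. All 9 libraries thus carry the floxed alleles, there is no back library without Cre, and site and genotype cannot be told apart in knockout back versus control tail. The promoter drives Cre in basal keratinocytes, not in the melanocytes that were sorted, so Spry1 counts in these libraries are no check of the deletion. Spry1, a feedback inhibitor of receptor tyrosine kinases, had 1510, 1074 and 1285 normalised counts in the controls, 3590, 1758 and 587 in the tail knockouts and 2283, 0 and 746 in the back knockouts. The labels name no age, sex or tamoxifen schedule. Nor is it stated whether replicates are different animals, so the p-values below cover the variation among these libraries alone, and part of it may be technical.

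Pigment synthesis makes hydrogen peroxide and quinones, and melanocytes rely on thiol chemistry to contain them. Glutathione peroxidases and peroxiredoxins reduce peroxides with electrons from glutathione or thioredoxin, and glutathione transferases join glutathione to quinones and lipid aldehydes. Many of these genes are induced by the transcription factor NRF2 (gene Nfe2l2), which KEAP1 holds in check and which binds the antioxidant response element. Selenoproteins carry selenocysteine, and Selenop is the secreted protein that carries selenium between tissues.

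Depth and library quality differed. Counts recovered from the deposited values summed to between 45658164 and 67756964 per library. Of the back knockouts, replicates 1 and 2 lacked any count for 4628 and 6127 genes. The remaining 7 libraries lacked counts for 854 to 1739 genes. Before deposit a shift had been removed that set the mean of knockout tail replicate 3 and knockout back replicate 3 equal, gene by gene, to the mean of the other 7 libraries. Values given per library below are normalised counts, that is recovered counts divided by a library size factor, and they do not contain that removal. Differences and tests are on the deposited log2 scale, which understates changes of genes with few counts. The 2 libraries set equal to the other 7 are both knockouts, and the 7 hold all controls. The removal can thus also take out part of a difference between knockout and control and add spread within the knockout groups. Melanocyte markers were high in every library: the 7 of 10 listed markers with recovered counts summed to 653710 to 662962 in the controls, 775897 to 922301 in the tail knockouts and 875904 to 990274 in the back knockouts. Basal keratinocyte markers were present too, with sums of 39033 to 100246, 12718 to 325924 and 39208 to 190386. In sorted bulk samples, fewer cells of a type and less RNA per cell cannot be told apart.

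In control tail the iron-storage and glutathione-conjugating genes were the most abundant members per kilobase of exon. Ftl1, the ferritin light chain, had 465478 ± 73032 normalised counts per kilobase of exon (mean ± SD, n = 3), and Gstp1, the pi-class transferase, had 118688 ± 8627. The ferritin heavy chain Fth1 followed at 53611 ± 14998. A cluster of peroxide-removing genes came next, with Prdx1 at 34183 ± 7889, Gpx1 at 33166 ± 3884 and Gpx4, the peroxidase that reduces lipid hydroperoxides in membranes, at 31277 ± 3982 per kilobase. The library ranges of Prdx1, Gpx1, Gpx4, Gstm1 (29366 ± 4171) and Txn1 (27816 ± 7790) overlapped from each to the next lower, so their order was not resolved, and the same held for Fth1 and Prdx1. Ftl1 and Gstp1 each stood clear of the next. The length is the union of exons over all annotated transcripts, not that of 1 transcript, and the order depends on it. Before division, Fth1 and Gstp1 had mean normalised counts of 185976 and 183729, over 3.469 and 1.548 kilobases of exon.

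The other levels spanned a wide range. Selenop held rank 10 of the members in control tail at 15324 ± 2052 per kilobase. Sod1, the cytosolic superoxide dismutase, had 4006 ± 803 and Cat, catalase, 3021 ± 298. Of the enzymes that supply reduced glutathione, G6pdx, the first enzyme of the pentose phosphate pathway and source of NADPH, had 3340 ± 1388 and Gsr, glutathione reductase, 2233 ± 416. Nfe2l2 had 2705 ± 500 and Keap1 638 ± 183. The lowest members were Gstm3, Gsta3, Mgst2, Gstt1 and Gsto2, with 23.3 to 78.1 per kilobase. Summed per kilobase over members, the quinone, haem and iron proteins made up 55.5% of the total in the controls, 51.3% in the tail knockouts and 42.1% in the back knockouts, and the transferases 23.8%, 25.5% and 29.5%. Single genes weigh heavily in these shares. Ftl1 had means of 465478, 404791 and 292677. Among the transferases Mgst1 had 14076, 9532 and 53928, with back libraries from 11288 to 86562, while Gstp1 had 118688, 121171 and 84134. The shares thus do not show a shift of whole classes. Ferritin and several transferases have close copies or pseudogenes, so the split of reads between copies is uncertain.

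**Figure D1:**
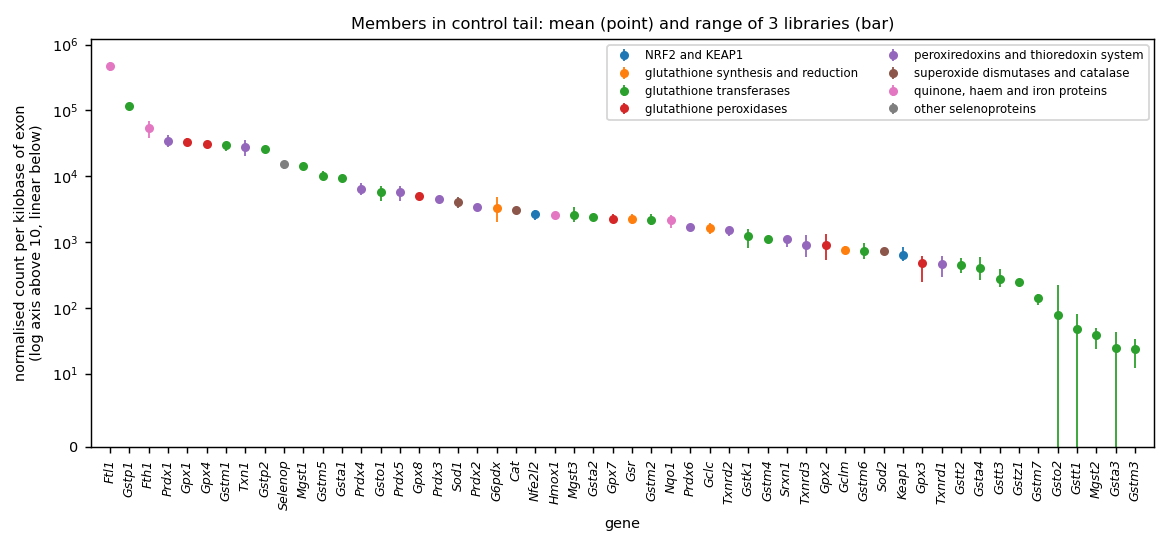
Normalised counts per kilobase of exon of the 54 members in the controls, on an axis that is logarithmic above 10 and linear below. Points are means and bars the range of 3 libraries, coloured by role, and the order runs from Ftl1 at 465478 to Gstm3 at 23.3.

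Selenop was higher in the libraries with Cre than in the controls. Its normalised counts were 45542, 36984 and 48129 in the controls, 147234, 172262 and 178829 in the tail knockouts and 178349, 164934 and 253585 in the back knockouts. All 6 libraries with Cre lay above all 3 controls, and the tail and back libraries overlapped. The ratio of mean counts to control was 3.81 in the tail knockouts and 4.57 in the back knockouts. Against control tail, Selenop rose in the back knockouts by 1.77 ± 0.30 on the deposited log2 scale (± standard error, limma adjusted p = 0.0451). In knockout tail versus control tail the difference was 1.53 ± 0.30 and did not pass (adjusted p = 0.589). With the set of libraries as a second term, whose estimate does not depend on the removed shift, Selenop passed in both comparisons, with differences of 1.80 (limma adjusted p = 0.0433) and 2.04 (adjusted p = 0.00272). The mean of the 2 libraries of the smaller set was 1.19 higher than that of the other 7 before the shift was removed. In the deposited values knockout tail replicate 3 stood at 16.86 against 17.77 and 17.99 for replicates 1 and 2. Knockout back differed from knockout tail by 0.24 ± 0.30 (adjusted p = 0.683).

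In knockout tail versus control tail, Selenop passed in 4 of 24 alternatives: the set term, the shift put back, and log2 of the normalised count plus 1 or plus 10. Against control tail, its call in knockout back was kept in 13 of 23 alternatives. Of the fits that leave out 1 library, it was kept only without knockout tail replicate 3 (adjusted p = 0.0227) or without knockout back replicate 3 (adjusted p = 0.00915), and leaving out any of the other 7 gave 0.0664 to 0.138. Those 7 fits called 0 to 11 of all genes, against 163 in the main fit, so losing the call is not particular to Selenop. Without the 2 back libraries with most genes at 0, with replicate 3 the only back library left, the difference was 1.35. Selenop is also made by macrophages and stromal cells. The 7 of 8 listed Langerhans cell and myeloid markers in the table summed to 155 to 497 in the controls, 524 to 9546 in the tail knockouts and 7175 to 21182 in the back knockouts. Knockout tail replicates 1 and 2, with Selenop at 147234 and 172262, had Lyz2 at 908 and 480, against 91.0 to 364 in the controls. Their other 6 markers lay between 0 and 107, with H2-Aa at 0. Knockout tail replicate 3 had Cd74 at 5137 and Csf1r at 493, against 12.4 to 21.3 for Csf1r in the controls. All back libraries had Cd74 at 1659 or more, and replicate 2 also had Lyz2 at 5372. Adgre1 was at 0 to 24.8 in all 9 libraries. The 4 of 6 listed fibroblast markers with counts summed to 925 to 1985, 1598 to 3228 and 400 to 2388. The part of any of these cells in the Selenop counts was not tested.

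The transcription start of Selenop lies on chromosome 15 (gene at 3268547 to 3280508, plus strand, GRCm38). The bases before the start sites of the members that passed in at least 1 of the 2 fits and have a window, and of Gclm and Nqo1, classic NRF2 targets, were searched for the antioxidant response element core TGACNNNGC on both strands. They are shown 5′ to 3′ on the gene's strand, from RefSeq on GRCm38.p6, 250 bases up to the start, with the core in capitals.
Selenop, chr15:3270517-3270766, plus strand: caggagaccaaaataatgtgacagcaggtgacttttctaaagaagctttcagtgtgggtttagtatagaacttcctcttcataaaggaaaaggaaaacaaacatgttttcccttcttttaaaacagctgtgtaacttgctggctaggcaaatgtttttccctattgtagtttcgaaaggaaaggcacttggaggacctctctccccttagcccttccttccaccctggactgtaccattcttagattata
Mgst1, chr6:138140277-138140526, plus strand: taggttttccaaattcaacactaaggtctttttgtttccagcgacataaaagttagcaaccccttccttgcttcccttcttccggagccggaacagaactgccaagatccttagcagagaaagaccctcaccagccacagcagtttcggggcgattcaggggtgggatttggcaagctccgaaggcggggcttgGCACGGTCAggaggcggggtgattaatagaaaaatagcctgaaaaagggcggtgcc
Gstm5, chr3:107895604-107895853, plus strand: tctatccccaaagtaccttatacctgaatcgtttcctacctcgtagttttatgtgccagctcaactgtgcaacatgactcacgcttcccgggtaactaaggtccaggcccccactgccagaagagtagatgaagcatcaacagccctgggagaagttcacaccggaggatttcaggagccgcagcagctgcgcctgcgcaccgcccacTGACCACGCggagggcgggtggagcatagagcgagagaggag
Gsta2, chr9:78347146-78347395, minus strand: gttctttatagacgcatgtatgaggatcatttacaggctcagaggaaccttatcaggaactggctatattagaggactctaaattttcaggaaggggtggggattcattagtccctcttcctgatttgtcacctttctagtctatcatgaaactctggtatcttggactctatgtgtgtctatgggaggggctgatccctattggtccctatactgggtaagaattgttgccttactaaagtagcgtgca
Txnrd3, chr6:89643738-89643987, plus strand: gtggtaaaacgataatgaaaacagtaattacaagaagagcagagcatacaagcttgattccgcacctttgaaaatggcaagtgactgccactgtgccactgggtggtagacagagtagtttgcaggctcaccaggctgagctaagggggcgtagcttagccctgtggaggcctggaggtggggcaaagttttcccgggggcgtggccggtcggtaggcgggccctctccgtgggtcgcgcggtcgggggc
Gclm, chr3:122245307-122245556, plus strand: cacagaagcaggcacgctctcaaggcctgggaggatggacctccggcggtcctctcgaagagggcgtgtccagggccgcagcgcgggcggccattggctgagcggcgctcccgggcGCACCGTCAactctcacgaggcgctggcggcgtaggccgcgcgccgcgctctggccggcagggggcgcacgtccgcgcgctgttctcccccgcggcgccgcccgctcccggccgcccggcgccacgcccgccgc
Nqo1, chr8:107403206-107403455, minus strand: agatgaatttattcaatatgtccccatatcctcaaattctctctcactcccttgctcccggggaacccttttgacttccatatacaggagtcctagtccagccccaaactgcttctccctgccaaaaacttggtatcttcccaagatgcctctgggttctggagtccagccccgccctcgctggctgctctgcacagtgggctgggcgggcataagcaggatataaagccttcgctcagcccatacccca

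The core lay in the windows of Mgst1, Gstm5 and Gclm, and its letters are not in those of Selenop, Gsta2, Txnrd3 and Nqo1. The Selenop window is the nearest of 3 RefSeq starts to the GENCODE start, 2220 bases from it, and that of Gsta2 is 8643 bases from it. Both windows lie within the GENCODE gene, so their lack of the core does not speak to the bases before the GENCODE start. Most of the Mgst1 window also lies within its GENCODE gene, which starts at 138140316. Promoters were matched for 48 of the 54 members. Of their 65 windows, 15.4% held the core, against 10.2% of 32851 windows of all genes. The 10 members with the core were G6pdx, Gclm, Gsta3, Gstm5, Gstm7, Mgst1, Nfe2l2, Prdx1, Sod1 and Txnrd1. The E-box CACGTG, which MITF and other factors bind, was in 1 member, Prdx4, and in 6.02% of all windows. Gclc, Gsr, Gsta4, Gstt2, Hmox1 and Prdx6 were not matched.

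**Figure D2:**
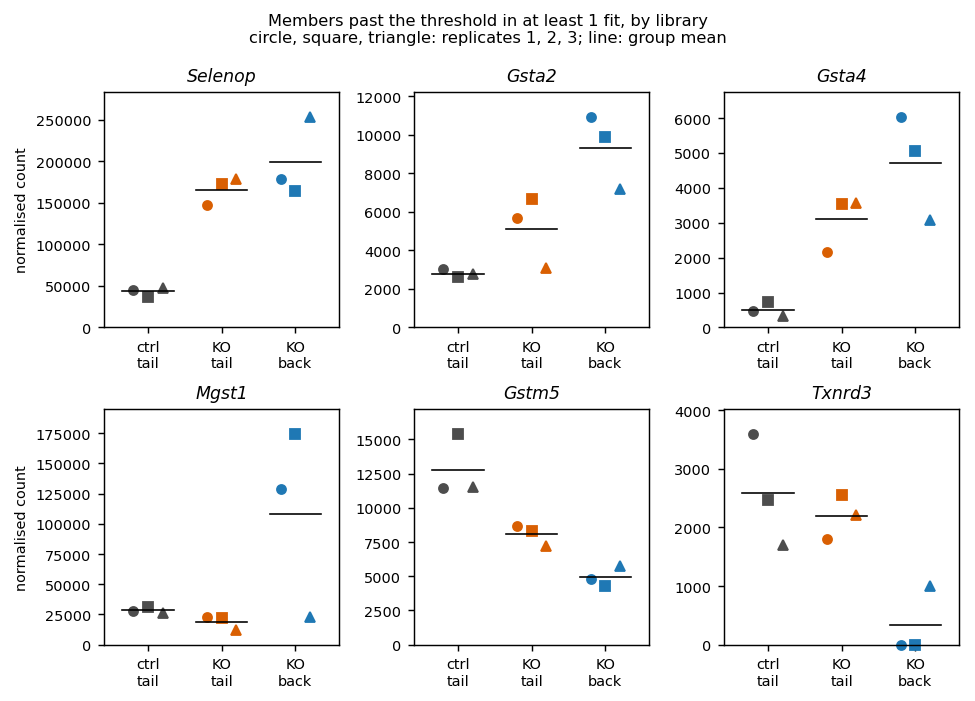
Normalised counts of 6 members by library, with 1 point per replicate and a line at each group mean. Selenop and Gsta4 are higher in all 6 knockout libraries than in any control, Mgst1 is high only in knockout back replicates 1 and 2 (128701 and 174248), and Txnrd3 is at 0 in those same libraries.

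The alpha-class transferases conjugate glutathione to products of lipid peroxidation, and Gsta2 rose in the back knockouts. Gsta2 had 3010, 2608 and 2768 normalised counts in the controls, 5664, 6656 and 3070 in the tail knockouts and 10915, 9864 and 7161 in the back knockouts, with no overlap between any pair of groups. It rose in knockout back versus control tail by 1.60 ± 0.27 (limma adjusted p = 0.0451), and by 1.80 with the set term (adjusted p = 0.0144). In knockout tail versus control tail its difference was 0.76 ± 0.27 (adjusted p = 0.814). The call in the back knockouts was kept in 10 of 23 alternatives. It was kept without knockout tail replicate 3 (adjusted p = 0.0397) or knockout back replicate 3 (0.0105) but not without any other single library (0.068 to 0.138). The fits that ended the call had 0 to 11 of all genes called, against 163 in the main fit, so this is not particular to Gsta2. Without both sparse back libraries, with replicate 3 the only back library left, the difference was 1.34. Gsta1, whose coding sequence is close to that of Gsta2, had 8054 to 9751 in the controls, 9224 to 15606 in the tail knockouts and 12345 to 18928 in the back knockouts, a difference of 0.78 ± 0.26 between back and control that did not pass (adjusted p = 0.105). Both genes lie on chromosome 9 (Gsta1 at 78230656 to 78242684, Gsta2 at 78331018 to 78355788, GRCm38), and the split of reads between them is uncertain. The Langerhans cell and myeloid marker sums given for Selenop were higher in the back knockouts than in the controls, and their part in the Gsta2 counts was not tested.

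Gsta4, the transferase most active on the lipid aldehyde 4-hydroxynonenal, showed the largest ratio to control of the members without a library at 0. Its normalised counts were 465, 738 and 334 in the controls, 2173, 3546 and 3576 in the tail knockouts and 6032, 5054 and 3083 in the back knockouts. Each knockout library was above each control, and the ratio of means to control was 6.05 in tail and 9.22 in back. The difference was 1.67 ± 0.45 for knockout tail (limma adjusted p = 0.634) and 2.19 ± 0.45 for knockout back (adjusted p = 0.0529), neither past the threshold. With the set term the back difference was 2.52 and passed (adjusted p = 0.0275), and that of tail was 1.99 and did not (adjusted p = 0.220). Gsta3 had 1835 and 8151 in knockout back replicates 1 and 2, against 0 in replicate 3, 0 to 189 in the controls and 0 to 3.23 in knockout tail. Its difference of 2.71 ± 0.83 between back and tail did not pass (adjusted p = 0.117).

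Mgst1, a membrane-bound transferase and peroxidase, rose in the back knockouts. Its normalised counts were 27605, 30808 and 26590 in the controls, 23064, 22065 and 12433 in the tail knockouts and 128701, 174248 and 22724 in the back knockouts. Replicates 1 and 2 of knockout back were high, and replicate 3 lay within the range of the tail libraries. The difference was 2.08 ± 0.36 against knockout tail (limma adjusted p = 0.0375) and 1.93 ± 0.36 against control tail (adjusted p = 0.04997). In the deposited values replicate 3 stood at 15.16, above every tail library: the mean of the smaller set was below that of the larger set by a shift of -1.32, and removing the shift raised it. With the shift put back the adjusted p was 0.222 and 0.263. With the set term it was 0.0596 and 0.0382. Without the 2 back libraries with most genes at 0, with replicate 3 the only back library left, the differences were 1.17 and 1.01. Leaving out any single library other than knockout back replicate 3 ended both calls (adjusted p of 0.0603 to 0.138). Those fits called 3 to 111 of all genes against knockout tail and 0 to 87 against control tail. The main fit called 244 and 163. In back replicates 1, 2 and 3 the 8 differentiated keratinocyte markers summed to 37887, 212488 and 58160, against 14030 to 154661 in the tail libraries. The part of other cells in the Mgst1 counts was not tested.

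Of the other transferases, 0 passed the group-only fit. Gstm5 had 11476, 15383 and 11546 in the controls, 8648, 8319 and 7201 in the tail knockouts and 4822, 4263 and 5719 in the back knockouts, and no 2 groups overlapped. Its difference between knockout back and control tail was -1.16 ± 0.24 (limma adjusted p = 0.0525), just short of the threshold, and -1.30 with the set term (adjusted p = 0.0357). It passed in 11 of 23 alternatives. Mgst3, a microsomal transferase and peroxidase, had 2240 to 3696 in the controls, 1336 to 1587 in the tail knockouts and 1241 to 1521 in the back knockouts, with differences from control of -0.64 ± 0.32 and -0.70 ± 0.32 that did not pass. Gstp1 had 168319 to 191949, 132081 to 221567 and 127026 to 136171, and its neighbour Gstp2 26899 to 30430, 31418 to 32420 and 16819 to 30824. Gstz1, which acts in tyrosine breakdown, had 1233 to 1294 in the controls, 668 to 1372 in the tail knockouts and 2256 to 4056 in the back knockouts. It differed by 1.10 ± 0.35 between back and tail (adjusted p = 0.123). Of the 23 transferases 12 had a positive difference in knockout tail versus control tail, with a median of 0.02, and 13 in knockout back versus control tail, with a median of 0.33. Over all genes the medians were -0.05 and -0.23.

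Nqo1, the quinone reductase that is a standard readout of NRF2, was at or near 0 counts in back replicates 1 and 2. It had 3948, 3448 and 2545 normalised counts in the controls, 3636, 1811 and 1042 in the tail knockouts and 4.31, 0 and 1155 in the back knockouts. All back libraries lay below all controls, and replicate 3 overlapped knockout tail. The difference of -2.91 ± 0.73 from control did not pass (limma adjusted p = 0.0597, or 0.0611 with the set term). It was -1.12 without back replicates 1 and 2. Hmox1, which breaks down haem, had 3869 to 4786 in the controls, 3966 to 6245 in the tail knockouts and 2659 to 3418 in the back knockouts. Its difference between back and tail was -0.69 ± 0.24 (adjusted p = 0.143). Ftl1 had 534655, 608075 and 728491 in the controls, 633831, 527201 and 466229 in the tail knockouts and 428864, 356798 and 390900 in the back knockouts. Every back library was below every tail library, with a difference from control of -0.56 ± 0.15 that did not pass (adjusted p = 0.0706). Fth1 overlapped in all groups, at 133090 to 237103.

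The regulators themselves did not pass in any comparison. Nfe2l2 had 8120 to 11712 in the controls, 6829 to 12650 in the tail knockouts and 2592 to 13695 in the back knockouts, with overlap throughout. Keap1 had 2567, 2431 and 3978 in the controls and 4668, 4189 and 4633 in the tail knockouts, without overlap, and 4243, 5066 and 3033 in the back knockouts. The Keap1 difference in knockout tail was 0.55 ± 0.27 and did not pass.

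Gclc, Gclm, Gsr and Gpx4 were lowest in the replicates 3 of both knockout groups, and G6pdx was not. Gclc, Gclm and this grouping were chosen after the values were seen. Gclc and Gclm encode the catalytic and modifier subunits of glutamate-cysteine ligase, the first step of glutathione synthesis. Gclc had 5028, 5935 and 7267 in the controls, 9264, 9008 and 747 in the tail knockouts and 7523, 4844 and 911 in the back knockouts. Gclm had 5509, 4568 and 4104, then 6330, 7082 and 787, then 6442, 5805 and 839. Replicate 3 of both knockout groups was thus far below all others. The shift before removal, smaller set minus larger set, was -2.51 for Gclc and -2.27 for Gclm on the log2 scale, and 0.963% and 1.44% of all genes had a larger shift in either direction. Gsr, which recycles glutathione, had 7425, 5823 and 5205 in the controls, 6061, 5066 and 1666 in the tail knockouts and 2119, 2774 and 1453 in the back knockouts. Its difference between back and control was -0.93 ± 0.30 (limma adjusted p = 0.0980). Gpx4 had 46248 to 59478 in the controls, and 19933 and 29428 in the replicates 3 of knockout tail and back, against 47028 to 66671 in the other knockout libraries. Of the 54 members 7 (13.0%) were lower in both libraries of the smaller set than in any of the other 7, against 7.38% of all genes. They were Gclc, Gclm, Gsr, Gpx4, Txn1, Gstt2 and Txnrd2. Only 1 member (1.85%), Selenop, was higher in both, against 10.3% of all genes. In the deposited values these set differences are absent, and Gclc, Gclm, Gsr and Gpx4 did not pass between groups.

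**Figure D3:**
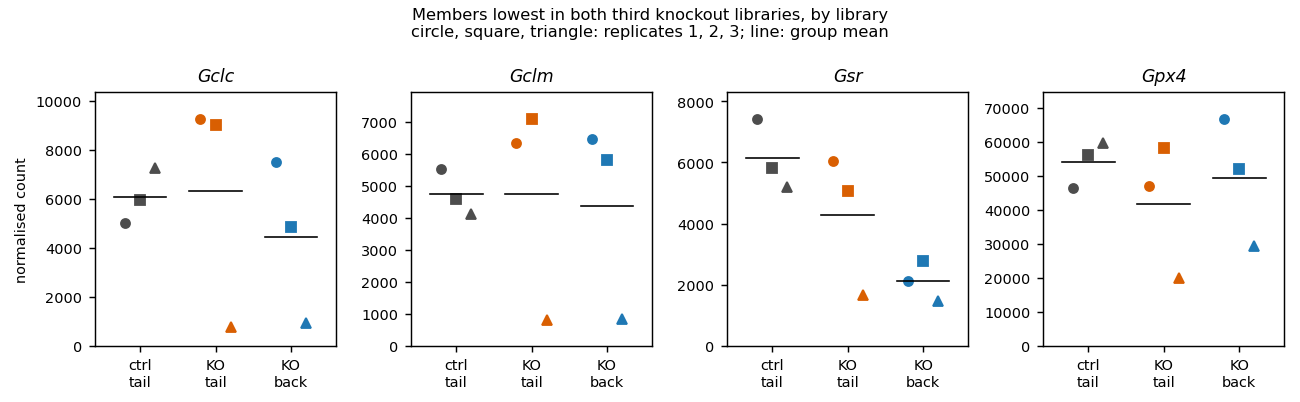
Normalised counts of Gclc, Gclm, Gsr and Gpx4 by library, with 1 point per replicate and a line at each group mean. The triangles of knockout tail and knockout back, the replicates 3, are the lowest points in each panel, at 747 and 911 for Gclc.

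G6pdx, on the X chromosome, had 14666, 10066 and 6127 in the controls, 14100, 17469 and 15029 in the tail knockouts and 4248, 13943 and 5416 in the back knockouts. All back libraries were below all knockout tail libraries, and the difference of -1.11 ± 0.42 did not pass (limma adjusted p = 0.181).

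Of the 6 glutathione peroxidases, 0 passed in any comparison. Gpx1, the main cytosolic enzyme, had 43720 to 54175 in the controls, 29783 to 43107 in the tail knockouts and 37990 to 48267 in the back knockouts. Its difference of -0.32 ± 0.16 in knockout tail did not pass, although its groups did not overlap there. Gpx2, an epithelial enzyme, had 1730, 4198 and 2803 in the controls, 1370, 556 and 2547 in the tail knockouts and 1041, 0 and 1083 in the back knockouts, with a difference of -2.11 ± 0.68 from control in back that did not pass. Gpx3, the secreted plasma form, was 13348 in knockout back replicate 3 and 146 to 1663 in the other 8 libraries.

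Within the peroxiredoxins and the thioredoxin system, Txnrd3, Prdx3, Prdx4 and Prdx5 were lower in every back library than in any control. Txnrd3, a thioredoxin reductase best known from testis, had 3589, 2468 and 1702 in the controls, 1802, 2556 and 2205 in the tail knockouts and 0, 0 and 997 in the back knockouts. Its difference from control was -2.87 ± 0.58 (limma adjusted p = 0.0525), and -3.14 with the set term, where it passed (adjusted p = 0.0434). It was -1.51 without back replicates 1 and 2, the libraries at 0, with replicate 3 the only back library left. Prdx3, the mitochondrial peroxiredoxin, had 5931 to 7418 in the controls, 5498 to 7910 in the tail knockouts and 3600, 4.68 and 5144 in back. Prdx4, the peroxiredoxin of the endoplasmic reticulum and an X-linked gene, had 11058, 16789 and 12802, then 7976, 11677 and 5421, then 1979, 4749 and 6131, a difference from control in back of -1.50 ± 0.43 (adjusted p = 0.0796).

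The abundant Prdx1, a cytosolic peroxiredoxin, stayed between 74437 and 130743 in all libraries, and its 3 differences lay within their standard errors. Srxn1, which repairs oxidised peroxiredoxins, had 3523, 3383 and 2352 in the controls and 6813, 4769 and 6850 in the tail knockouts, without overlap, but 4899, 0 and 4858 in back. Its difference in knockout tail was 0.54 ± 0.95 and did not pass. Txnrd1, the cytosolic reductase, had 2109 to 4310 in the controls, 4127 to 9481 in the tail knockouts and 2189 to 9120 in back. Prdx2, the peroxiredoxin of red cells, was 9734 to 11635 in the controls and 11796 to 12684 in back, with a difference of 0.21 ± 0.16 (limma adjusted p = 0.434). Red blood cell markers summed to 84023 and 105763 in knockout tail replicates 1 and 2 and 632 to 25637 elsewhere. Prdx2 was 12840 and 12321 in those 2 libraries and 9734 to 12684 elsewhere. The part of red cells in the Prdx2 counts was not tested. Txn1, thioredoxin, had 21241 to 37603, 11308 to 24914 and 15722 to 33390.

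Sod1, the cytosolic superoxide dismutase, and Cat, catalase, did not pass in any comparison. Sod1 had 12990, 15411 and 19306 in the controls, 9955, 9930 and 10397 in the tail knockouts and 16099, 16693 and 11748 in back. Knockout tail was below both other groups, with a difference of -0.51 ± 0.19 from control that did not pass (limma adjusted p = 0.868). Cat had 7116 to 8675 in the controls, 6982 to 8832 in the tail knockouts and 11667, 19032 and 10639 in back. Every back library was above every tail library, with differences of 0.75 ± 0.22 from knockout tail and 0.77 ± 0.22 from control (adjusted p of 0.107 and 0.0763). Sod2, the mitochondrial form, overlapped throughout at 4690 to 8393.

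**Figure D4:**
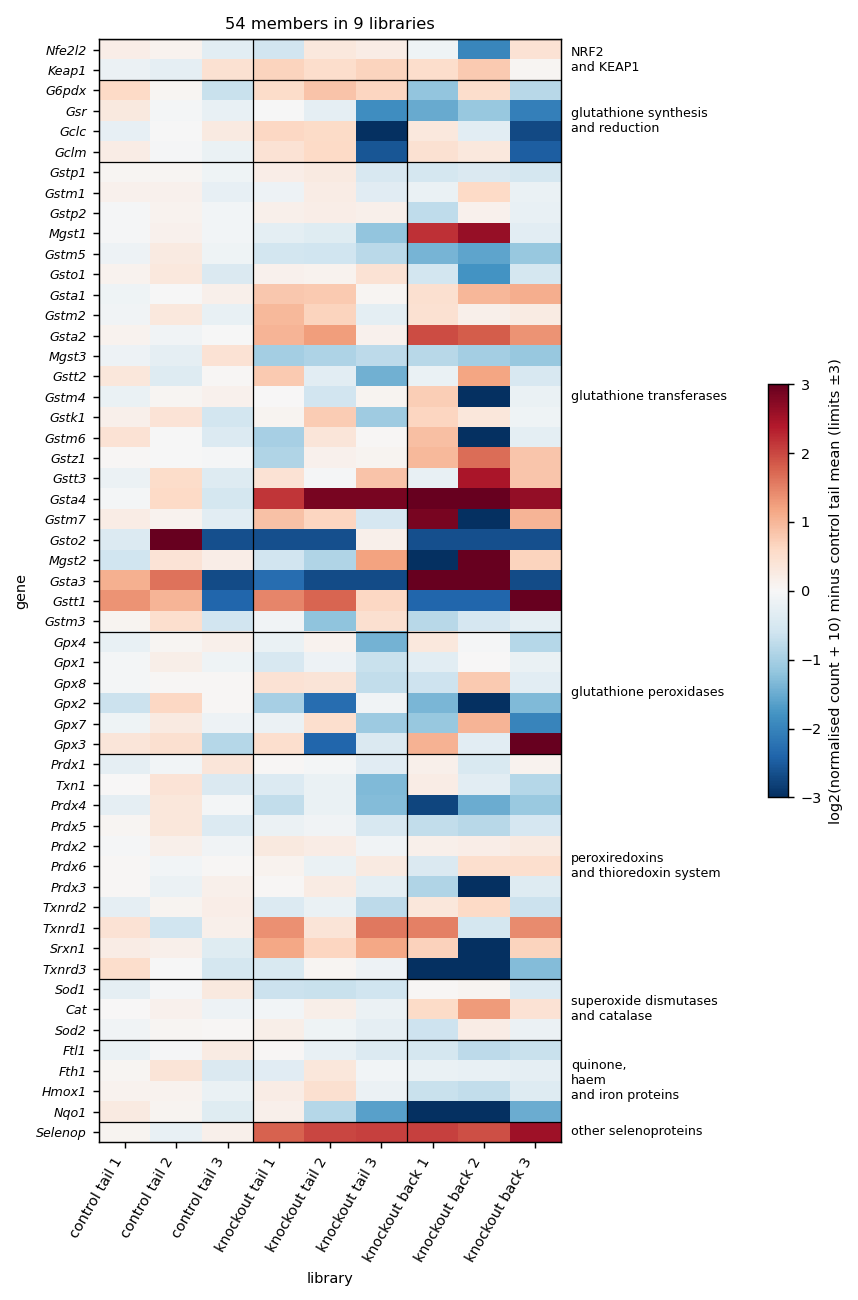
Log2 of the normalised count plus 10, minus the control tail mean, for the 54 members (rows, by role) in the 9 libraries (columns), with colour limits at ±3. Selenop and Gsta4 are red in all 6 knockout libraries, Gclc and Gclm are dark blue in the replicates 3 of both knockout groups, and dark blue cells gather in knockout back replicates 1 and 2.

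Counted over all 54 members, with no filter on low values, the limma group-only fit called 0 members in knockout tail versus control tail, where 0.00% of 16299 genes were called. There 4 members had an unadjusted p under 0.05, as did 4.99% of genes, and the fit with the set term called 1 member (0.0614% of genes). In knockout back versus knockout tail it called 1 member, Mgst1, as higher (0.411% of genes) and 0 as lower (1.09% of genes). An unadjusted p under 0.05 was found for 17 members and 21.3% of genes. With the set term 0 members were called (0.436% of genes). Between knockout back and control tail it called 3 members as higher, Selenop, Gsta2 and Mgst1 (0.387% of genes), and 0 as lower (0.614% of genes). An unadjusted p under 0.05 was found for 19 members and 26.1% of genes. With the set term 6 were called (3.34% of genes): Gsta4 was added as higher, and Gstm5 and Txnrd3 as lower.

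Normalised counts of the groups did not overlap in 11 members in knockout tail versus control tail (19.0% of all genes), 13 in back versus knockout tail (15.0%) and 20 in back versus control tail (23.0%). In the last comparison 13 were lower in back (15.6% of genes) and 7 higher (7.41%). The 6 higher in knockout tail than control (9.70% of genes) were Selenop, Gsta4, Gsta2, Gstp2, Keap1 and Srxn1. The 5 lower (9.31%) were Gpx1, Gstm5, Mgst1, Mgst3 and Sod1. The 4 higher in back than knockout tail (4.55%) were Cat, Gsta2, Gstz1 and Sod1, and 9 were lower (10.4%). The 7 higher in back than control were Selenop, Gsta4, Gsta2, Gsta1, Cat, Gstz1 and Prdx2. The 3 comparisons share libraries pairwise, so their counts are not independent. Over all members the median difference was -0.04, -0.08 and -0.01 in the 3 comparisons, against -0.05, -0.18 and -0.23 over all genes.

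**Figure D5:**
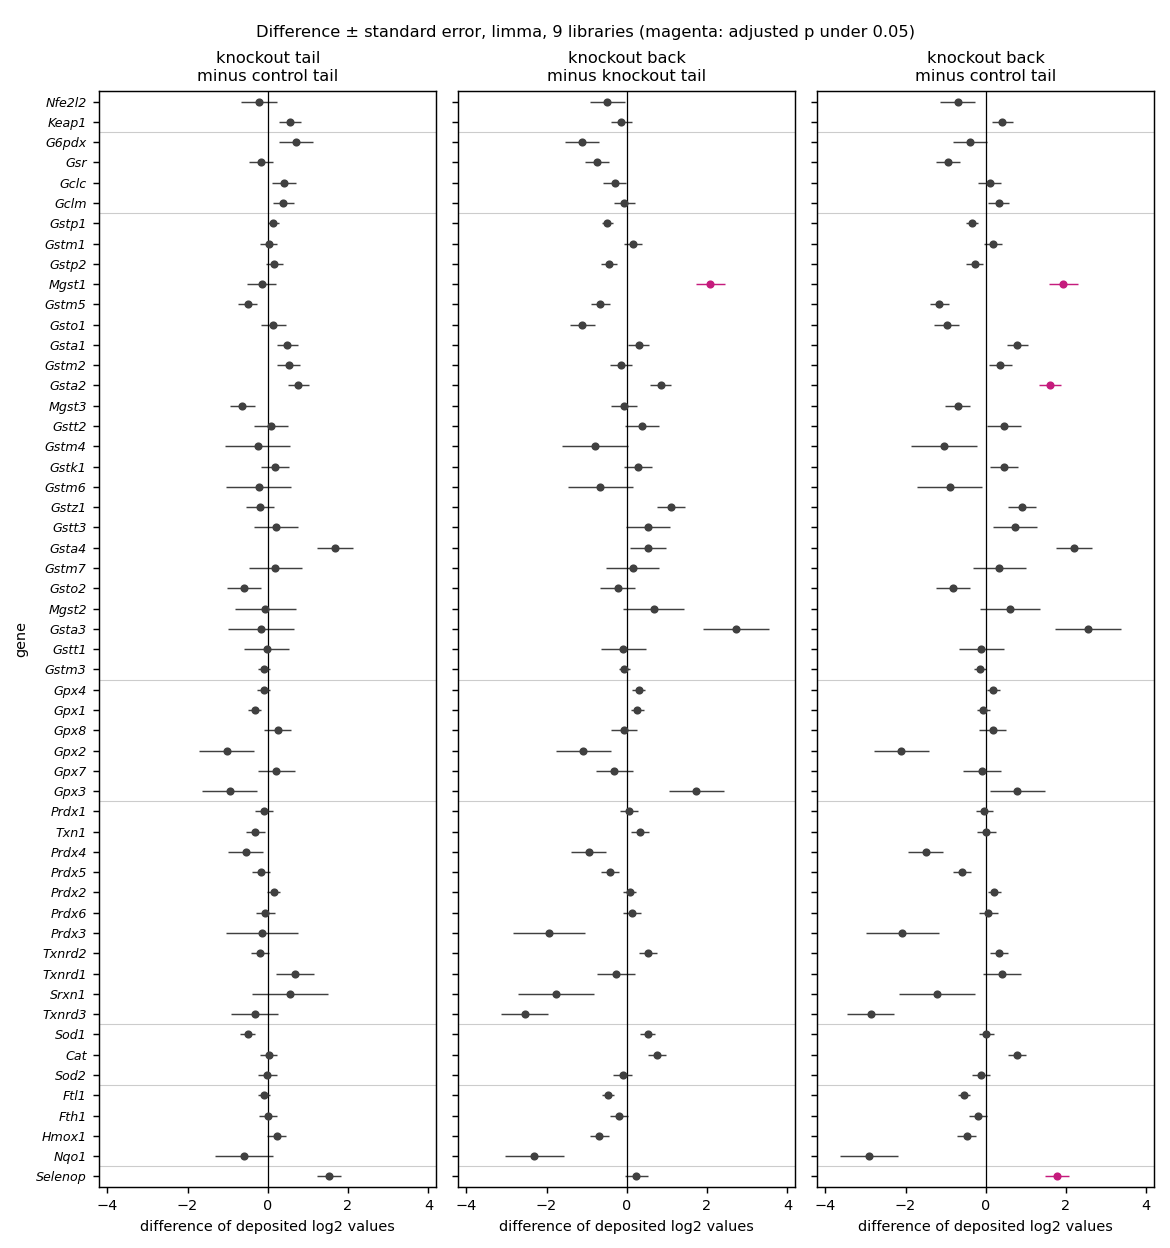
Difference of deposited log2 values ± standard error for each member in the 3 comparisons (limma, 9 libraries), with members past an adjusted p of 0.05 in magenta. No member is magenta in knockout tail minus control tail, Mgst1 is in both comparisons with back, and Gsta2 and Selenop are in back minus control tail.

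Of the 11 other genes named Seleno and a letter, 0 passed the limma group-only fit in any comparison. The numbers with an unadjusted p under 0.05 were 1, 1 and 2 for tail versus control, back versus tail and back versus control, where 4.99%, 21.3% and 26.1% of all genes had one. Their median difference was -0.28 in knockout tail versus control tail, where 9 of 11 were negative, and -0.31 in knockout back versus control tail, where 8 were negative. Over all 16299 genes 9067 and 10814 were negative. Selenoi, an enzyme of phospholipid synthesis, had 294, 297 and 64.8 in the controls, 555, 225 and 837 in the tail knockouts and 4258, 1297 and 2124 in back, with every back library above every other library. Its difference of 1.95 from control in back did not pass. Selenov, with few counts, had 112, 208 and 55.0 in the controls, 0, 0 and 62.4 in the tail knockouts and 0 in all back libraries. It passed as lower in back versus control with the set term (limma adjusted p = 0.0496).

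The partners of the pathway, 75 genes of 83 listed, included NRF2 cofactors, glutathione turnover, methionine repair, selenocysteine machinery and iron handling. In knockout tail versus control tail 0 passed, with a median difference of 0.01. In knockout back versus knockout tail 1 rose (0.411% of all genes) and 1 fell (1.09% of all genes). Txnip, which binds and inhibits thioredoxin, had 1494, 2323 and 3393 in the tail knockouts and 5443, 8470 and 33428 in back, and rose by 2.13 ± 0.42 (limma adjusted p = 0.0499, or 0.0820 with the set term). Fech, the last enzyme of haem synthesis, had 14780, 14561 and 24089 in the tail knockouts and 6116, 7132 and 10564 in back, a fall of 1.11 on the log2 scale (adjusted p = 0.0392, or 0.0718 with the set term). In knockout back versus control tail 0 rose (0.387% of all genes) and 1 fell (0.614%). This was Lrp8, a receptor that takes up Selenop, which had 813, 1047 and 763 in the controls and 0, 4.68 and 203 in back (difference -1.94 ± 0.37, limma adjusted p = 0.04997, and -2.13 with the set term, adjusted p = 0.0371). In knockout tail Lrp8 was 610 to 745. Without single libraries the number of partners called ranged from 0 to 13 in back versus knockout tail, where 3 to 1972 of all genes were called. In back versus control tail it ranged from 0 to 12, where 0 to 2804 of all genes were called.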

How the data were processed

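RNA of sorted melanocytes was sequenced from paired-end SMART-Seq v4 libraries, per the labels' protocols. The authors' deposited log2 values, for 16299 genes and 9 libraries, run from 5.85 to 20.9. DESeq2 and GRCm38 are named per the submitters' processing notes, without version or role, and for the aligner, counter and strand setting none is named in those notes. From the values, they have the form of variance-stabilised counts in which the means of 2 sets of libraries, of 2 and 7, were made equal in every gene (largest difference 7.14e-09). Undoing both steps gave counts within 0.004 of whole numbers for 16295 genes; Dct, Pmel, Tyrp1 and Gm22133 were not recovered. The recovery and the fits were also checked on simulated data.

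Differences were tested with limma 3.58.1 (R 4.3.3; mean-variance trend, robust moderation) on the deposited values as they stand, across the 9 libraries, modelling group alone, with Benjamini-Hochberg adjustment over all genes (threshold 0.05). As the values were already on a log2 scale, no pseudocount was added. A limma fit that adds the library set (set term) is named beside results it changes. Other alternatives were fits without single libraries or sets, voom on recovered counts, the shift put back, other scalings, pseudocounts of 1 and 10 and a filter. No filter was applied to the 54 members. Levels per length divide by the union of exons over all GENCODE vM21 transcripts of the gene. A single value compared between 3 and 3 libraries could not go below p = 0.1 in an exact permutation test, so none is given. Promoter windows of 250 bases are from RefSeq.

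Members, gene lists and tests were chosen with earlier results of these data known. Genes named with values were those past the threshold in either fit, the 2 most abundant per kilobase in each role, the 6 with the largest difference in each comparison (mean normalised count of at least 100) and those without overlap between groups where 8 or fewer shared a direction; others were chosen after their values were seen. Replicate numbers were not used to pair the samples in the main fit. Pairing was checked on the deposited values, from which the shift between the library sets had been removed. The check therefore cannot decide whether the knockout libraries of the smaller set were paired. The result of a further marker list is not reported here.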

Additional observations from a re-analysis of the deposited data

How the results depend on the processing

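None of the named differences and counts recomputed under the alternatives reversed direction. With the set term, computed for all 54 members, 4 differences near 0 changed sign: Sod1 (0.01 to -0.03) and Txn1 (0.02 to -0.01) in knockout back versus control tail, and Gsta3 (-0.17 to 0.02) and Fth1 (0.01 to -0.0007) in knockout tail versus control tail. Members called in knockout tail versus control tail numbered 0, as did all genes called. With the set term, the shift put back, or log2 of the normalised count plus 1 or plus 10, 1 member was called. These fits called 10, 6, 4 and 4 of all genes. In knockout back versus knockout tail 1 member was called (244 of all genes). The number became 0 with the set term (71 genes), the replicate block (21), only the 2 groups (2) and voom (168). It was also 0 with the shift put back (31 genes) and pseudocounts of 1 and 10 (139 and 41). It became 3 with quantile normalisation (207 genes), and 5 with only the 7 libraries of the larger set (1637) or with array weights (1325). Leaving out 1 library gave 0 to 6 members and 3 to 1972 genes. Against control tail, 3 members were called in knockout back (163 of all genes). The number became 0 with the replicate block (42 genes) and only the 2 groups (7). It became 6 with the set term (545 genes) or without trend and robust moderation (471), and 8 with quantile normalisation (579). With array weights it was 9 (903 genes) and with the 7 libraries 11 (2371). Leaving out 1 library gave 0 to 13 members and 0 to 2804 genes, both highest without knockout back replicate 3. Pathway partners in knockout back versus knockout tail went from 2 to 0 with the set term, the block and only the 2 groups. They were also 0 with the shift put back, both pseudocounts, and voom without and with the set term (168 and 199 of all genes). The number was 1 without trend (274 genes), and 9 with the 7 libraries or array weights (0 to 13 without 1 library). Against control tail the 1 partner became 0 under the same alternatives other than the set term, 3 with quantile normalisation, 6 with array weights and 13 with the 7 libraries (0 to 12 without 1 library). There voom, the shift put back and both pseudocounts called 217 to 420 of all genes. The other Seleno genes called in knockout back versus control tail went from 0 to 1 with the set term or quantile normalisation and 2 with the 7 libraries or array weights (0 to 1 without 1 library). The counts of all genes in these fits are those given with the members. The cause was not tested. Deviations of same-numbered libraries from their group means were correlated in the deposited values. The correlations were 0.03, -0.08 and -0.08 for tail knockout and control, and 0.01, 0.05 and 0.08 for back knockout and control. For both knockouts they were -0.02, -0.17 and -0.70. The removed shift had set the mean of the replicates 3 of both knockouts equal to that of the other 7. The value of -0.70 therefore cannot decide whether these libraries deviated together. With the replicate block 0 members were called in each comparison. Values of members near 0 counts are uncertain in the sparse back libraries, where 9 members of knockout back replicate 2 had no count. That library had 47666814 counts and lacked any for 6127 genes. Knockout tail replicate 3 had 45658164 and lacked any for 854. The cause of the missing counts was not tested.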

Other observations

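Rows for processed copies of 3 abundant members were also counted. The Gpx4 copy Gpx4-ps2 had 10362, 11927 and 10948 normalised counts in the controls, 10128, 12195 and 4434 in the tail knockouts and 9156, 7273 and 5799 in the back knockouts. The pi-class transferase copy Gstp-ps had 18564 to 23966, 10604 to 25061 and 7765 to 14866, and the ferritin copy Ftl1-ps1 had 12327 to 19257, 11088 to 16100 and 8814 to 11348. For Gpx4-ps2 the replicates 3 of both knockout groups were the lowest libraries, as they were for Gpx4. They were also the lowest for Gstp-ps, at 10604 and 7765, but not for Gstp1. Gstp1 was lower in knockout back replicate 1 (127519) than in knockout tail replicate 3 (132081).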
